A study of Mus musculus with 6 samples.

Results

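The 9 genes described here encode 5 STAT transcription factors, *Stat2*, *Stat3*, *Stat4*, *Stat5a*, and *Stat6*, and the 4 JAK kinases, *Jak1*, *Jak2*, *Jak3*, and *Tyk2*. They were chosen by name, and every spot of the arrays that is not a control and carries a chosen gene name was used. All 9 genes were found among the 34789 gene names tested, by 13 probes in 22 spots per array. Each of the 9 was well above background on all 6 arrays by its brightest probe on average, which stands for the gene unless another is named.

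JAK kinases are tyrosine kinases bound to the inner ends of cytokine receptors. When a cytokine joins the receptor chains, the kinases phosphorylate each other and the receptor, and STAT proteins that dock there are phosphorylated in turn, form dimers, and act on genes in the nucleus. Macrophages use the pathway to respond to interferons, to cytokines such as IL-6, IL-10, and IL-4, and to the growth factor GM-CSF, and LPS engages it through the cytokines that the cells secrete. The arrays measured RNA, so neither the amount of STAT or JAK protein nor its phosphorylation was observed.

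The RNA came from wild-type BMDMs, which are macrophages grown from the marrow of female C57BL/6 mice, aged 6 to 8 weeks per the labels, for 7 days with L929-conditioned medium. The study's methods give an older range of age for the mice. Untreated BMDMs were compared with BMDMs stimulated for 4 h with LPS, a component of the bacterial cell wall that engages TLR4, and with BMDMs that received 10 μM HBX41108 for 30 min before the same LPS. HBX41108 is a small molecule inhibitor of the deubiquitinase USP7, and the last group is called LPS+USP7i. The LPS dose is 100 ng/ml in the description of the series and 100 ng/μl in the sample labels. Whether solvent was added to cells that had LPS without the inhibitor is not stated, so an effect of solvent cannot be told apart from that of HBX41108.

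Each group was measured on 2 single-color arrays, whose samples came from independent experiments according to the series design, so precision is limited throughout. All 6 arrays lay on 1 slide and were read in 1 scan. The second index of the position on the slide goes with the group and the first with the replicate number, so slide position and treatment cannot be told apart. Spots well above background numbered 27467 and 27126 on the untreated arrays, 25223 and 25002 (LPS), and 26415 and 25290 (LPS+USP7i). Across 20705 probes detected on all 6 arrays, replicates differed on the log2 scale with an SD of 0.29 (untreated), 0.34 (LPS), and 0.40 (LPS+USP7i). The replicates of LPS+USP7i were thus the furthest apart, which bears on *Jak2* and *Stat5a* below.

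The label of the cells was set against marker genes. All 8 macrophage markers were well above background on all 6 arrays, with *Csf1r*, the receptor for M-CSF, the highest by its mean over the arrays. Their summed level on the log2 scale was 19.48 and 19.46 on the untreated arrays, 19.46 and 19.51 after LPS, and 19.26 and 19.16 after LPS+USP7i. Single markers did change: *Cd14*, the LPS co-receptor gene, rose by 1.69 with LPS (adjusted p = 0.00518) and fell by 1.31 with the inhibitor (0.0184), *Itgam* fell by 0.66 with LPS (0.0233), and *Fcgr1*, an Fc receptor gene, fell with the inhibitor by 1.60 from LPS (0.0317) and by 1.26 from untreated cells (0.0374). None of the 3 natural killer cell markers, 3 mast cell and basophil markers, or 4 stromal markers was well above background on all 6 arrays (0 of each list). Of 4 B cell markers, 1 (*Cd79a*) was. *Pax5* of that list was well above background with LPS+USP7i alone, at least 1.39-fold above LPS (adjusted p = 0.0244) and at least 2.07-fold above untreated cells (0.0105). Of 3 dendritic cell markers, 1 (*Siglech*) was well above background on all 6 arrays, while *Flt3* was above background on 0 arrays. The third, *Zbtb46*, was well above background on the 4 arrays of stimulated cells alone, and against untreated cells it was at least 5.65-fold higher with LPS (adjusted p = 0.00435) and at least 4.41-fold higher with LPS+USP7i (0.00806). All 6 markers of neutrophils and their precursors were, with *Elane* the highest by its mean over the arrays though not on LPS replicate 2, where *S100a9* read 12.38 and *Elane* 11.36, and signals of different probes are only roughly comparable. Their summed log2 level was 12.35 and 12.74 without treatment, 12.51 and 13.48 after LPS, and 12.60 and 13.22 when the inhibitor was present, and no gene of this list passed the threshold in any comparison.

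In the comparison of LPS with untreated BMDMs, which asks how stimulation changes these genes, LPS raised the expression of 5 of the 9 genes: *Jak2*, *Stat5a*, *Stat3*, *Stat2*, and *Tyk2*. The threshold was an adjusted p of 0.05 from limma with Benjamini-Hochberg adjustment over all probes. Of all gene names tested, 7.98% were called higher and 12.8% lower by the same rule, and 0 of the 9 genes were called lower. Among the 22221 RefSeq genes the shares were 9.08% higher and 16.7% lower. The other 4 genes, *Stat4*, *Stat6*, *Jak1*, and *Jak3*, did not pass. The median difference of the 9 genes was 1.04 on the log2 scale, and that of all genes was 0.00 after quantile normalization. With dim probes left out, the median of all genes was −0.19. Under scaling to the 75th percentile instead, 12151 genes of the array and 7 of the 9 were called higher. In 8 of the 9 genes the arrays of the 2 groups did not overlap, which held for 60.9% of all genes, so a lack of overlap between pairs of arrays was common.

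*Jak2* encodes the kinase used by the receptors for GM-CSF, IL-3, and interferon-γ, and by those for IL-12 and IL-23. On the log2 scale of normalized signal, *Jak2* read 10.27 and 10.25 (untreated), 14.25 and 14.14 (LPS), and 11.59 and 12.34 (LPS+USP7i). The LPS arrays stood far above all others, the inhibitor arrays lay between the other groups without touching either, and LPS+USP7i replicate 1 was the lower of its pair. In the scanner's processed signal, before normalization, the same arrays read 1326 and 1842, 18881 and 21563, and 2348 and 5015. LPS raised *Jak2* by 3.94 ± 0.27 (standard error) on the log2 scale, a 15.4-fold increase (95% confidence interval 3.19 to 4.70, adjusted p = 0.00493). This call was made under all 15 alternative settings. The probe lies on mouse genome build mm9 at chr19:29387487-29387546.

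*Tyk2* encodes the kinase that pairs with the type I interferon receptor and the receptors for IL-10, IL-12, and IL-23. It read 10.61 and 10.60 on the untreated arrays, 11.65 and 11.53 after LPS, and 9.81 and 10.03 after LPS+USP7i. The order of the groups therefore differed from that of *Jak2*, since the inhibitor arrays lay below the untreated arrays and the 3 groups were fully separate. LPS raised *Tyk2* by 0.98 ± 0.10 (1.98-fold, adjusted p = 0.00964). The call was lost without untreated replicate 1 (adjusted p = 0.0588), without untreated replicate 2 (0.0631), and without LPS replicate 1 (0.0517). The probe is at chr9:20909321-20909380 (mm9).

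*Jak1* serves the interferon receptors and the receptors that share gp130 or the common γ chain. It read 12.64 and 12.67 without treatment, 13.03 and 12.88 after LPS, and 12.62 and 12.80 when the inhibitor was present, so the untreated and LPS+USP7i arrays overlapped. The difference between LPS and untreated cells was 0.30 (95% confidence interval 0.03 to 0.57, adjusted p = 0.137). It passed under 2 of the 15 alternative settings. These were 75th percentile scaling, at 0.74 (adjusted p = 0.0137), and normexp background correction, at 0.33 (0.0274). *Jak3*, the kinase of receptors with the common γ chain, read 8.96 and 8.78 (untreated), 9.38 and 8.86 (LPS), and 8.41 and 8.10 (LPS+USP7i). The LPS arrays of *Jak3* were far apart and 1 of them lay between the untreated arrays, so its difference of 0.25 (95% confidence interval −0.38 to 0.88, adjusted p = 0.586) was within the spread between replicates. The probes are at chr4:100825094-100825153 for *Jak1* and chr8:74210801-74210860 for *Jak3* (mm9).

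Among the STAT genes, *Stat5a* had the largest increase. STAT5A is a main mediator of GM-CSF, IL-3, and IL-2 signaling. Its signal was 9.80 and 9.76 on the untreated arrays, 12.98 and 12.89 after LPS, and 10.33 and 10.90 after LPS+USP7i. As for *Jak2*, the LPS arrays were close together and far above the rest, and LPS+USP7i replicate 1 was the lower of its pair. LPS raised *Stat5a* by 3.16 ± 0.21 (8.93-fold, 95% confidence interval 2.58 to 3.74, adjusted p = 0.00465), and the call was made under all 15 alternative settings. The probe lies at chr11:100746373-100746432 (mm9).

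*Stat3*, which acts downstream of IL-6 and IL-10, was measured by 10 spots of the same probe, whose SD within an array was at most 0.062. It read 12.81 and 12.49 without treatment, 13.91 and 13.58 after LPS, and 12.75 and 12.78 when the inhibitor was present. The inhibitor arrays fell inside the range of the untreated arrays, and both LPS arrays were above all others. LPS raised *Stat3* by 1.10 ± 0.17 (2.14-fold, adjusted p = 0.0235). The call was lost without untreated replicate 1 or 2 and without LPS replicate 1. It was also lost when only the 2 groups compared were in the fit (adjusted p = 0.0612). Leaving out either LPS+USP7i array nearly repeated that fit, since a group of 1 array adds nothing to the estimate of the spread. The probe is at chr11:100749598-100749657 (mm9).

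*Stat2* encodes the STAT that, with IRF9 and another STAT, forms ISGF3, the factor that type I interferons activate. It read 13.05 and 12.73 (untreated), 13.98 and 13.87 (LPS), and 13.34 and 13.39 (LPS+USP7i). The inhibitor arrays lay between the other groups without overlap. LPS raised *Stat2* by 1.04 ± 0.13 (2.05-fold, adjusted p = 0.0151), a call lost without LPS replicate 1 (adjusted p = 0.0765) or 2 (0.0597). The probe is at chr10:127729834-127729893 (mm9).

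*Stat4*, which mediates IL-12 signaling and is best known from T cells and natural killer cells, read 7.91 and 8.32 on the untreated arrays, 9.41 and 9.86 after LPS, and 7.13 and 7.82 after LPS+USP7i. Both LPS arrays were above the others, and the replicates within each group were further apart than those of *Jak2* or *Stat5a* in untreated and LPS cells. The difference of 1.52 ± 0.33 between LPS and untreated cells missed the threshold (adjusted p = 0.0517) and passed under 7 of the 15 alternative settings. *Stat6*, the mediator of IL-4 and IL-13, read 12.16 and 12.17 without treatment, 11.83 and 11.80 after LPS, and 11.53 and 11.37 when the inhibitor was present. It was the single gene of the 9 whose signal was lower with LPS than in untreated cells. Its difference of −0.35 ± 0.08 missed the threshold (adjusted p = 0.0546) and passed under 5 of the 15 settings. Under scaling to the 75th percentile the difference was near 0, at −0.014 (adjusted p = 0.894). With the median of a gene's probes it was −0.023 (0.966), so the decrease with LPS depended on the setting. The probes are at chr1:52163802-52163861 for *Stat4* and chr10:127097689-127097748 for *Stat6* (mm9).

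**Figure D1:**
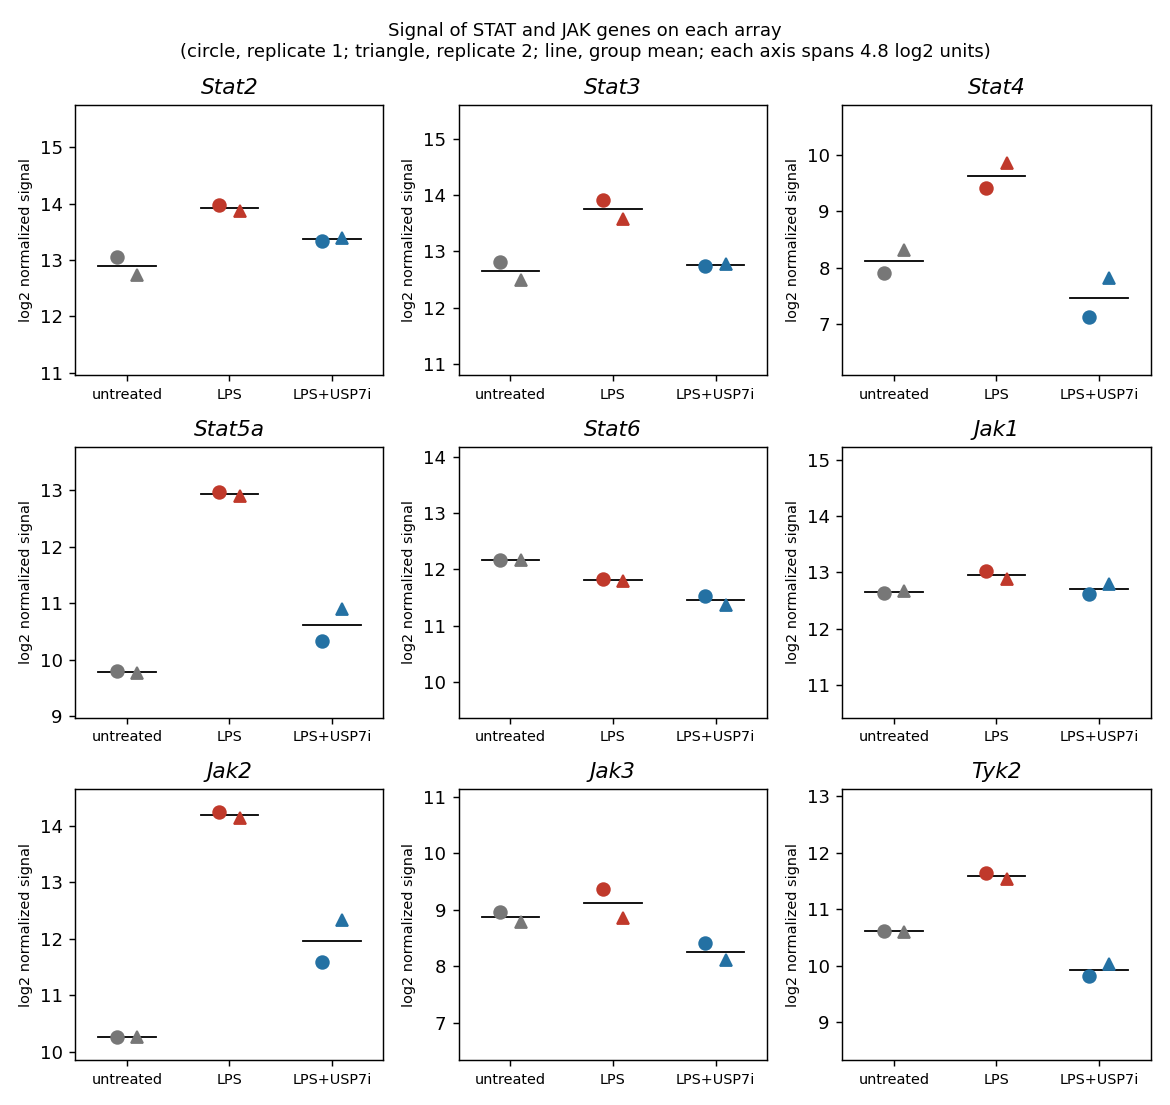
Normalized signal (log2) of the 9 genes on each of the 6 arrays, with 1 panel per gene, groups on the horizontal axis, a circle for replicate 1, a triangle for replicate 2, and a line at the mean of each group of 2 arrays. *Jak2* and *Stat5a* have both LPS arrays far above the other 4, *Tyk2* has the LPS+USP7i arrays below the untreated arrays, and *Stat6* steps down from untreated cells to LPS to LPS+USP7i.

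Several cells other than macrophages use *Stat4*, so the T cell markers stand beside it. Of 6 T cell markers, 3 (*Cd3e*, *Cd4*, and *Lck*) were well above background on all 6 arrays, and *Cd3g* and *Cd8a* were so on 0 arrays. The summed log2 level of the list was 11.16 and 11.04 (untreated), 12.06 and 12.11 (LPS), and 11.40 and 11.10 (LPS+USP7i). *Cd4* was the brightest gene by its mean over the arrays, though signals of different probes are only roughly comparable. On the LPS arrays *Cd4* read 10.68 and 10.35, below *Lck* on both. *Lck* alone changed in the list, with 6.87 and 6.91 on the untreated arrays, 10.94 and 11.30 after LPS, and 8.43 and 8.86 after LPS+USP7i. *Cd3e*, part of the T cell receptor complex, read 9.35 and 9.08, 9.35 and 9.13, and 9.55 and 9.39 in the same order. Its untreated and LPS arrays overlapped, both LPS+USP7i arrays lay slightly above the other 4, and it passed in no comparison. The part of other cells in the *Stat4* signal was not tested further. For every gene given here, fewer cells that express it and less RNA per cell cannot be told apart in bulk RNA.

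The sequences before the start sites were searched for short motifs of factors that respond to cytokines and LPS, and those of *Jak2*, *Stat5a*, and the genes with a match are printed below. All 9 genes matched the RefSeq promoter table (build GRCm38.p6) by symbol, with 11 start sites, since *Stat4* and *Stat5a* have 2 each. The 300 bases from 250 before to 50 after each start were read on both strands for 3 motifs. These were the GAS motif of STAT dimers (TTCNNNGAA), which reads the same on both strands, the first 9 letters of an ISRE core (GAAANNGAA), and the first 9 letters of an NF-κB core (GGGNNTTTC). The ISRE-type letters were found at 3 of the 11 start sites, *Stat2*, *Jak3*, and the second *Stat4* start, against 8.56% of all 32851 promoters in the table. The GAS letters were found at 0 of the 11 starts (8.30% of all promoters) and the NF-κB-type letters also at 0 (4.36%). A match is a description of the letters in the window, and a missing match says only that those letters are not in it.

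The 250 bases before the start are printed 5′ to 3′ on the strand of the gene, in lower case with a motif match in capitals. *Jak2* lies on the plus strand at chr19:29251553-29251802, where 80.8% of the bases are G or C, the highest share of the 11 windows. The *Stat5a* windows are at chr11:100859406-100859655 and chr11:100860234-100860483 (plus strand). *Stat2* is at chr10:128270248-128270497, the second *Stat4* start at chr1:52007990-52008239, and *Jak3* at chr8:71676133-71676382, all on the plus strand.
Jak2: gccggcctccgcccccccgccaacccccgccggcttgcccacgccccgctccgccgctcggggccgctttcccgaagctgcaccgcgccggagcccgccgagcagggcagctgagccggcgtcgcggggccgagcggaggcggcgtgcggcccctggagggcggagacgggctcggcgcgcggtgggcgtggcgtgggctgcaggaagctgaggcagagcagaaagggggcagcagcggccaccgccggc
Stat5a first start: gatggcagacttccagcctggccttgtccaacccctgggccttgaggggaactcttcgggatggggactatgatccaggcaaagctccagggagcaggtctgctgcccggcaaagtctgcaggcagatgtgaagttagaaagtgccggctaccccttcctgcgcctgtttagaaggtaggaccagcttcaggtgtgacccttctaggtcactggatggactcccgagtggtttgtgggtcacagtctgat
Stat5a second start: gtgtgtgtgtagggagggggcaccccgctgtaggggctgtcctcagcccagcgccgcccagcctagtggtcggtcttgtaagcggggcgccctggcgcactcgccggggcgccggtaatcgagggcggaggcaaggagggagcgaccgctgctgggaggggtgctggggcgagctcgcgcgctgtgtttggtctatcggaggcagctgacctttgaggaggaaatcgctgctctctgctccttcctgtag
Stat2: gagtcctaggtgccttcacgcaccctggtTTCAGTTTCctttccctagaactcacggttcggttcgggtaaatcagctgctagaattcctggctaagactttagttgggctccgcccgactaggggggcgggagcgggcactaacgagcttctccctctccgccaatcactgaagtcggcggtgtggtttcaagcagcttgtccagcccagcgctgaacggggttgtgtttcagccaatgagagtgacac
Stat4 second start: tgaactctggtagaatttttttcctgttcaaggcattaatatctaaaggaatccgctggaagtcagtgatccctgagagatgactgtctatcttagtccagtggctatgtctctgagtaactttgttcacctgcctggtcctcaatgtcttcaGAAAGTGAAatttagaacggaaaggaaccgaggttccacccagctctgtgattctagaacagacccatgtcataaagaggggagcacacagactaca
Jak3: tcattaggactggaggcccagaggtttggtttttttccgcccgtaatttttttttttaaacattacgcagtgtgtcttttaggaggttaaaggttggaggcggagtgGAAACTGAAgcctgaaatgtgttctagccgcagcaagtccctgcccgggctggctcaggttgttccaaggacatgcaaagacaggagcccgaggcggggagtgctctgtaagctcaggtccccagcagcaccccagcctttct
The match in *Stat2* is on the opposite strand and begins 221 bases before the start, that in *Jak3* begins 143 bases before it, and that in *Stat4* begins 97 bases before it. *Jak2* and *Stat5a*, with the largest increases among the 9 genes, held 0 matches of the 3 motifs in these windows.

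The comparison of LPS+USP7i with LPS shows how the signal differs when HBX41108 is given before LPS. No group received HBX41108 without LPS. A change of the response to LPS therefore cannot be told apart from an effect of HBX41108 on unstimulated cells. With the inhibitor, 4 of the 9 genes were lower than with LPS alone: *Jak2*, *Stat5a*, *Stat4*, and *Tyk2*. Of all gene names, 4.27% were called lower and 5.52% higher, and 0 of the 9 genes were called higher. Among RefSeq genes the shares were 5.22% lower and 6.95% higher. The other 5 genes, *Stat2*, *Stat3*, *Stat6*, *Jak1*, and *Jak3*, missed the threshold. In all 9 genes the mean with the inhibitor was below that with LPS and the arrays did not overlap, which held for 52.1% of all genes in either direction. The median difference of the 9 genes was −0.98 on the log2 scale, against 0.00 for all genes and 0.06 for all genes with dim probes left out. This comparison shares the LPS arrays with the one above, so an LPS value that is high by chance raises the first difference and lowers the second.

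*Stat5a* fell by 2.32 with the inhibitor (standard error 0.21, 95% confidence interval −2.90 to −1.74, adjusted p = 0.0178). *Jak2* fell by 2.24 (4.72-fold, standard error 0.27, 95% confidence interval −2.99 to −1.48, adjusted p = 0.0268). Both inhibitor arrays were below both LPS arrays in each gene, and the arrays of the inhibitor group differed from each other by more than those of the other groups. With a block for the replicate number in the fit, *Jak2* was not called, as given in the last section. The *Jak2* call was lost without LPS replicate 1 (adjusted p = 0.112) or 2 (0.0974), and that of *Stat5a* in the same way (0.0765 and 0.0683). Both calls were also lost with either untreated array left out. That nearly repeats a fit of the 2 compared groups alone, since 1 untreated array adds nothing to the estimate of the spread.

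*Tyk2* fell by 1.67 (3.19-fold, standard error 0.10, adjusted p = 0.0121), which was larger than its increase with LPS. Its standard error was among the smallest of the 9 genes. The *Tyk2* call was lost with either untreated array left out, which again nearly repeats a fit of the 2 compared groups alone. *Stat4* fell by 2.16 (4.46-fold, standard error 0.33, adjusted p = 0.0388). With any of the 6 arrays left out in turn, *Stat4* missed the threshold. For the untreated arrays this again nearly repeats a fit of the 2 compared groups alone. Among the T cell markers, *Lck* fell by 2.47 (adjusted p = 0.0161), while *Cd3e* and *Cd4* did not pass.

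*Stat3* was close to the threshold, with a difference of −0.98 ± 0.17 (95% confidence interval −1.45 to −0.51, adjusted p = 0.0503), and it passed under 6 of the 15 alternative settings. *Stat2* differed by −0.56 (95% confidence interval −0.92 to −0.19, adjusted p = 0.0943). The intervals of *Stat6*, *Jak3*, and *Jak1* were −0.58 to −0.15, −1.49 to −0.23, and −0.51 to 0.02. These intervals, which are not adjusted for the number of genes, do not include 0 for *Stat2*, *Stat3*, *Stat6*, and *Jak3*. A p that misses the threshold does not show that a gene was the same in both groups.

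All 4 calls rest on the spread estimated from the 3 groups together. When only LPS and LPS+USP7i entered the fit, 0 of the 9 genes passed in limma, with a smallest adjusted p of 0.0573 among them, and 0 genes of the whole array passed, although 8 of the 9 and 8004 genes in all had an unadjusted p under 0.05. For 2 arrays per side, the smallest two-sided p that exact permutation can reach is 0.333.

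**Figure D2:**
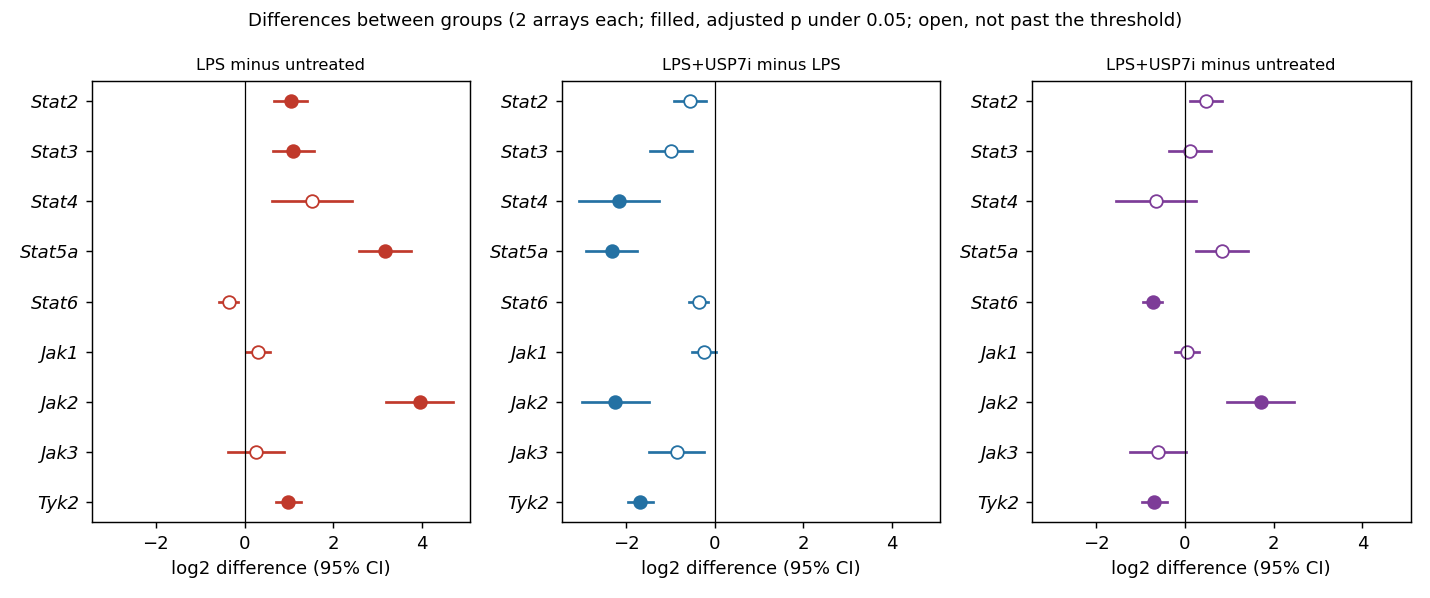
Difference between groups (log2, horizontal axis) for the 9 genes in each of the 3 comparisons, with 95% confidence intervals from limma as lines, filled circles for an adjusted p under 0.05, and open circles otherwise. In the middle panel all 9 points lie below 0 and 4 are filled, and in the left panel 8 of the 9 lie above 0 and 5 are filled.

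The comparison of LPS+USP7i with untreated cells shows how far the signal stood from its starting level when both agents were present. Of the 9 genes, 1 was higher than in untreated cells, *Jak2*, where 6.16% of all gene names were called higher. *Tyk2* and *Stat6* were lower, 2 of the 9 genes, where 8.71% of all gene names were called lower. Among RefSeq genes the shares were 7.15% higher and 12.0% lower. Under scaling to the 75th percentile, 12183 genes of the array and 3 of the 9 were called higher. *Jak2* was higher by 1.70 ± 0.27 (3.26-fold, adjusted p = 0.0323). *Tyk2* fell by 0.69 (standard error 0.10, 1.61-fold lower, adjusted p = 0.0270), and *Stat6* fell by 0.72 (standard error 0.08, 1.65-fold lower, adjusted p = 0.0145). *Stat6* thus reached the threshold over the 2 agents together and with neither step alone.

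The *Jak2* call was lost with either untreated array left out and with only the 2 groups compared in the fit (adjusted p = 0.0863). It was lost with either LPS array left out too. That nearly repeats the fit of the 2 groups, since 1 LPS array adds nothing to the estimate of the spread. The *Tyk2* call was lost with either untreated array or LPS+USP7i replicate 1 left out and with the authors' deposited table (adjusted p = 0.0731). It was also lost with only the 2 groups compared in the fit (0.0636), which leaving out either LPS array nearly repeated. The *Stat6* call was lost without untreated replicate 1 (0.0785) or 2 (0.0835). A block for the replicate number in the fit also ended the *Jak2* and *Tyk2* calls, as given in the last section. *Stat5a*, *Stat2*, and *Stat3* were above untreated cells by 0.84, 0.48, and 0.12 without passing (adjusted p = 0.0911, 0.112, and 0.796). Of the 15 alternative settings, *Stat5a* passed under 4, with differences over all settings from 0.55 to 1.12. *Stat2* passed under 2, with differences from 0.32 to 0.75, and *Stat3* under 0. *Jak1* differed by 0.05 (95% confidence interval −0.22 to 0.32), *Stat4* by −0.64 (−1.54 to 0.26), and *Jak3* by −0.61 (−1.24 to 0.02).

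Of the 9 genes, 3 were measured by several probes. Their brightness serves only to name the probes, and a difference in level between probes is not read as a difference in RNA. The second *Stat3* probe, assigned to another transcript and much dimmer, read 6.63 and 6.39 without treatment, 8.56 and 7.89 after LPS, and 7.10 and 7.01 when the inhibitor was present. It was higher with LPS by 1.72 (adjusted p = 0.0219) and differed by −1.17 with the inhibitor (adjusted p = 0.0815), the same directions and the same sides of the threshold as the bright probe. The second *Stat6* probe differed by −0.02 between LPS and untreated cells and by −0.60 between LPS+USP7i and LPS (adjusted p = 0.978 and 0.0633), so it placed nearly all of the decrease in the inhibitor step, whereas the bright probe divided it evenly. Against untreated cells it fell by 0.63 with LPS+USP7i (adjusted p = 0.0464), as the bright probe did. The third *Stat6* probe, the dimmest, passed in no comparison, and its groups overlapped in all 3. The second *Jak3* probe gave differences of 0.18, −0.68, and −0.50 in the order of the comparisons above, with the signs of the first, and passed in none.

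**Figure D3:**
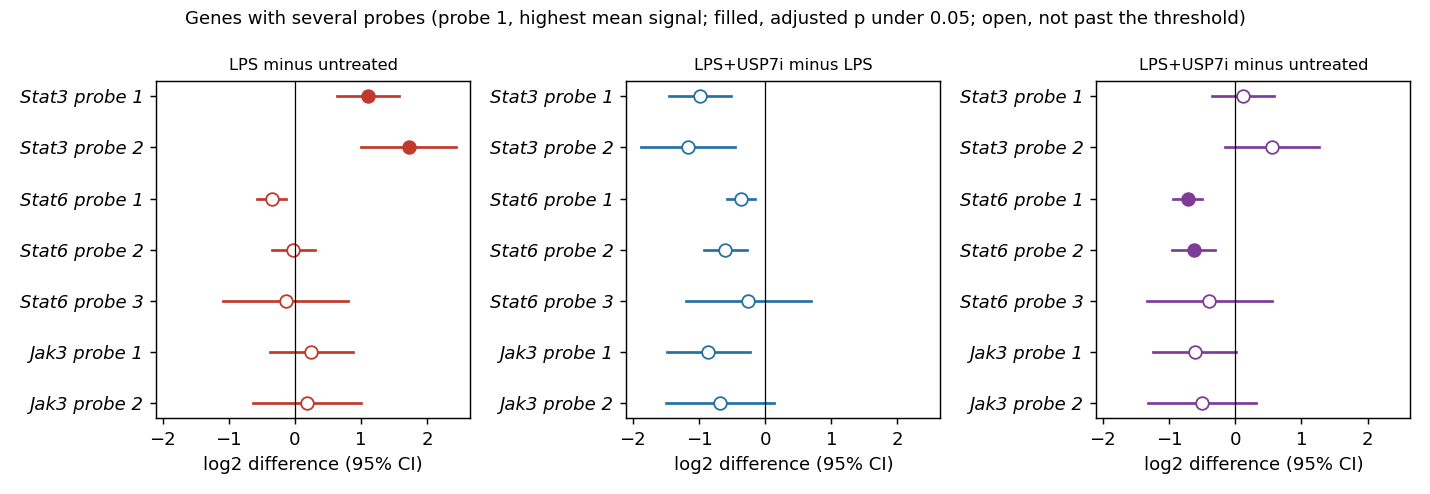
Differences between groups (log2, horizontal axis) for each probe of *Stat3*, *Stat6*, and *Jak3*, with 95% confidence intervals as lines and filled circles for an adjusted p under 0.05; probe 1 has the highest mean signal of its gene. The probes of a gene point the same way, except that *Stat6* probe 2 lies at −0.02 for LPS minus untreated and at −0.60 for LPS+USP7i minus LPS, while probe 1 lies at −0.35 and −0.37.

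For *Jak2*, *Stat5a*, *Stat2*, *Stat3*, and *Stat4*, 5 of the 6 genes called in either of the first comparisons, the other genes with the most similar pattern over the 6 arrays were found among 11654 RefSeq genes well above background on all arrays. The measure was the root mean square difference between log2 values, each gene centered on its own mean. For *Jak2* these were *Nod1*, an intracellular sensor of bacterial peptidoglycan, at 0.160, and *Ppm1k* at 0.167. For *Stat5a* they were *Slc2a6*, a sugar transporter gene, at 0.0790, and *Cysltr2*, a leukotriene receptor gene, at 0.130. The nearest to *Stat2* were *Macroh2a2* at 0.0272 and *Ms4a6d* at 0.0311, and those to *Stat3* were *A630001G21Rik* at 0.0684 and *Ung* at 0.0794. *Stat4* was closest to *St3gal3* and *Pik3ip1*, at 0.130 and 0.134.

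Of 23 ligand genes of the pathway, 11 were higher with LPS, 2 were lower, and 10 did not pass, with a median difference of 1.69. These counts include undetected genes, since 13 of the 23 were well above background in either group. The counts of this and the following lists stand beside the shares of all gene names called. With LPS these were 7.98% higher and 12.8% lower. With LPS+USP7i they were 5.52% and 4.27% against LPS, and 6.16% and 8.71% against untreated cells. *Il6*, which signals through gp130 to STAT3, rose by 11.86 (adjusted p = 0.00326). *Ifnb1*, the interferon-β gene, rose by 7.86 (adjusted p = 0.00317) from a level at which 1 of the 2 untreated arrays was well above background. *Il12b*, a subunit of IL-12 and IL-23, rose by 7.82 (adjusted p = 0.0139). *Il15* and *Il10* rose by 4.81 and 2.98 (adjusted p = 0.00537 and 0.0212). *Il4* was called lower (adjusted p = 0.0263) and was not well above background with LPS, so no size is given.

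With the inhibitor, 5 of the 23 ligand genes were lower than with LPS, 1 was higher, and 17 did not pass (median −0.53), with 12 of the 23 well above background in either group. The lower ones included *Il12b*, which fell by 5.73 (adjusted p = 0.0477), *Il27*, which fell by 3.40 (adjusted p = 0.0313), and *Tslp*, at least 3.61-fold lower (adjusted p = 0.00987). Such a bound is given where a group was undetected, and that group was set no lower than the dimmest signal counted as well above background on its arrays. *Ifnb1* read 12.01 and 12.85 (LPS) against 12.87 and 12.52 (LPS+USP7i), so these groups overlapped and the difference was 0.26 ± 0.36 (adjusted p = 0.766). *Il6* differed by −2.55 (adjusted p = 0.0831) and *Il10* by −1.48 (adjusted p = 0.150), and neither passed. The 1 higher gene, *Il4*, was undetected by the background rule in both groups. Against untreated cells, 7 ligand genes were higher with LPS+USP7i and 1 was lower, with *Il6* higher by 9.30, *Ifnb1* by 8.12, and *Il15* by 2.91 (adjusted p = 0.00644, 0.00509, and 0.0184). The size for *Ifnb1* is approximate, since it was well above background on 1 of the 2 untreated arrays.

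Receptor chains moved in both directions. Of 28 genes, 7 were higher with LPS, 7 were lower, and 14 did not pass (median 0.01). The shares of all gene names were 7.98% higher and 12.8% lower. *Il2ra*, the α chain of the IL-2 receptor, was at least 15.3-fold higher (adjusted p = 0.00788), *Il23r* at least 2.87-fold higher (0.00399), and *Il13ra1*, which binds IL-13, rose by 2.36 (0.0190). *Il6ra*, the IL-6 binding chain, fell by 3.06 (adjusted p = 0.00693), and *Il6st*, which encodes gp130, fell by 1.44 (adjusted p = 0.0158). *Il7r* fell by 1.24 (adjusted p = 0.00684). LPS thus lowered both chains of the IL-6 receptor while it raised *Il6* and *Stat3*.

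With the inhibitor, 3 receptor chains were higher than with LPS, 5 were lower, and 20 did not pass (median −0.22). Among all gene names, 5.52% were called higher and 4.27% lower. *Il6st* averaged 10.71 in untreated cells, 9.27 after LPS, and 10.89 after LPS+USP7i. Its inhibitor arrays overlapped with the untreated arrays and lay above both LPS arrays, a difference of 1.61 from LPS (adjusted p = 0.0252), which is the opposite direction to *Jak2* and *Stat5a*. *Il7r* and *Il4ra*, the chain that engages STAT6, were higher by 0.95 and 0.84 (adjusted p = 0.0236 and 0.0164). *Il2rg*, the common γ chain that holds JAK3, read 11.79 and 11.82, 13.20 and 13.05, and 12.05 and 12.09 in the same order, and fell by 1.06 (adjusted p = 0.0139). *Il2ra* was at least 12.4-fold lower (adjusted p = 0.0150) and *Il23r* at least 2.22-fold lower (0.0233).

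Of the chains of the interferon receptor that use TYK2 and JAK1, *Ifnar1* read 12.05 and 12.13 on the untreated arrays, 11.78 and 12.06 after LPS, and 10.81 and 11.09 after LPS+USP7i. LPS left its arrays overlapping with untreated cells (difference −0.17, adjusted p = 0.564), and the inhibitor arrays were below all others, with a fall of 0.97 from LPS (adjusted p = 0.0397). Against untreated cells, *Ifnar1* fell by 1.14 (adjusted p = 0.0206). *Ifnar2* differed by 0.19, −0.23, and −0.04 in the 3 comparisons and passed in none. The IL-10 receptor gene *Il10ra* rose by 0.88 with LPS (adjusted p = 0.0310) and differed by −0.80 with the inhibitor (adjusted p = 0.0620), while *Il10rb* fell by 0.58 with LPS (adjusted p = 0.0310). *Csf2rb*, the shared β chain of the GM-CSF receptor, which holds JAK2, differed by −0.38 and 0.05 and did not pass (adjusted p = 0.217 and 0.931). Against untreated cells, 2 of the 28 receptor chains were higher with LPS+USP7i and 4 were lower. The shares of all gene names were 6.16% higher and 8.71% lower. *Il4ra* was higher by 1.20 (adjusted p = 0.00636), and *Il6ra* and *Il10rb* differed by −2.34 and −0.85 (0.0159 and 0.0175).

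Genes of proteins that restrain the pathway included some of the largest increases among the lists given here, although *Il6* rose by more than any of them. Of 20 such genes, 9 were higher with LPS, 4 were lower, and 7 did not pass (median 0.19), where 7.98% of all gene names were called higher and 12.8% lower. *Socs3*, the inhibitor of gp130 signaling, rose by 7.91 (adjusted p = 0.00261), *Socs1*, which blocks JAK kinases, by 7.45 (0.00338), and *Cish*, an inhibitor of STAT5 signaling, by 6.83 (0.00539). *Sh2b3*, which encodes the JAK2 adaptor LNK, fell by 1.72 (adjusted p = 0.00304), *Dusp3*, a phosphatase gene, fell by 1.69 (0.00527), and *Pias3*, whose product binds STAT3, fell by 1.01 (0.0331). *Ptpn2*, a phosphatase that acts on JAK1 and JAK3, rose by 1.64 (adjusted p = 0.00412).

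With the inhibitor, 5 of these 20 genes were higher than with LPS, 5 were lower, and 10 did not pass (median −0.31). Among all gene names, 5.52% were called higher and 4.27% lower. *Socs3* read 8.70 and 8.10 without treatment, 16.25 and 16.37 after LPS, and 14.53 and 14.98 when the inhibitor was present. Its inhibitor arrays were below both LPS arrays and far above untreated cells, and the difference from LPS of −1.56 ± 0.27 missed the threshold (adjusted p = 0.0515). *Socs1* and *Cish* differed by −1.72 and −2.17 without passing (adjusted p = 0.0785 and 0.0912). *Usp18*, a brake on interferon receptor signaling, fell by 1.75 (adjusted p = 0.0298), *Socs2* fell by 0.92 (0.0217), and *Ptpn2* fell by 0.61 (0.0436).

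*Ptpn6*, which encodes the phosphatase SHP-1, read 14.14 and 13.87 (untreated), 13.58 and 13.50 (LPS), and 12.17 and 11.95 (LPS+USP7i). The arrays with the inhibitor were the lowest by a wide margin. *Ptpn6* differed by −0.47 between LPS and untreated cells (adjusted p = 0.107) and fell by 1.48 with the inhibitor (adjusted p = 0.0181). *Dusp3*, *Pias2*, and *Socs4* were higher with the inhibitor than with LPS, by 0.89, 0.63, and 0.59 (adjusted p = 0.0332, 0.0389, and 0.0205). Against untreated cells, 8 of the 20 genes were higher with LPS+USP7i and 4 were lower, among them *Socs3*, higher by 6.36, and *Ptpn6*, which fell by 1.95 (adjusted p = 0.00498 and 0.00742). *Socs1* and *Cish* were higher by 5.73 and 4.65 (adjusted p = 0.00695 and 0.0147), and *Pias3* and *Sh2b3* fell by 1.43 and 1.20 (0.0197 and 0.00655).

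**Figure D4:**
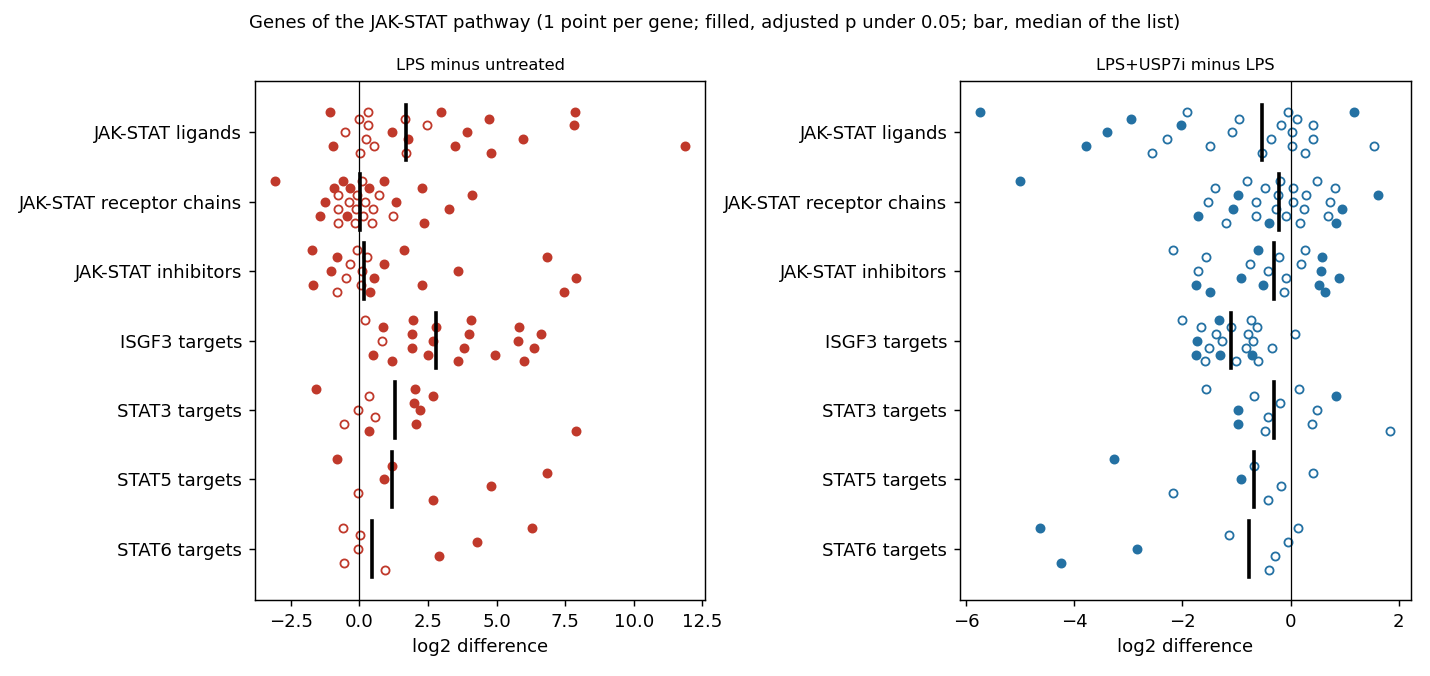
Difference between groups (log2, horizontal axis) for every gene of 7 lists of the JAK-STAT pathway, with 1 circle per gene, filled for an adjusted p under 0.05, and a bar at the median of each list; the vertical spread within a list has no meaning, and for genes not well above background in a group the plotted difference is the fitted one. With LPS (left) the ISGF3 targets lie highest as a list (median 2.78), and with the inhibitor (right) the medians of all 7 lists lie below 0, from −1.09 for ISGF3 targets to −0.22 for receptor chains.

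The target genes were grouped by a factor that is known to act on them, with some genes in several lists. Neither the activity nor the binding of the STAT factors was measured. A change in a list is therefore not a measure of the factor it is named for. For all 4 target lists, the shares of all gene names with LPS were 7.98% higher and 12.8% lower. With LPS+USP7i they were 5.52% and 4.27% against LPS, and 6.16% and 8.71% against untreated cells. Of 21 targets of ISGF3, 19 were higher with LPS, 0 were lower, and 2 did not pass (median 2.78), among them *Cmpk2*, *Rsad2*, and *Mx1*, which rose by 6.63, 6.38, and 6.00 (adjusted p = 0.00343, 0.00349, and 0.00390). *Irf9*, the DNA-binding partner of STAT2 in ISGF3, was an exception at 12.84 and 12.60 on the untreated arrays, 13.01 and 12.88 after LPS, and 12.95 and 13.09 after LPS+USP7i. It passed in no comparison, with differences of 0.23, 0.08, and 0.30 (adjusted p = 0.339, 0.807, and 0.229). With the inhibitor, 5 of the 21 targets were lower than with LPS, 0 were higher, and 16 did not pass (median −1.09). *Eif2ak2*, which encodes the RNA sensor PKR, fell by 1.73 (adjusted p = 0.0219), and *Xaf1* fell by 1.32 (0.0213). Against untreated cells, 11 of the 21 were higher with LPS+USP7i and 0 were lower (median 1.05), with *Rsad2*, *Mx2*, and *Cmpk2* higher by 5.64, 5.17, and 5.12 (adjusted p = 0.00636, 0.00460, and 0.00697).

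Of 12 targets of STAT3, 7 were higher with LPS, 1 was lower, and 4 did not pass (median 1.29), where 7.98% of all gene names were called higher and 12.8% lower. Besides *Socs3*, *Pim1*, a kinase gene, rose by 2.69 (adjusted p = 0.0133) and *Bcl3*, an atypical IκB gene, rose by 2.20 (0.00438), while *Mcl1*, a survival gene, fell by 1.56 (0.00517). With the inhibitor, 2 of the 12 were lower than with LPS, *Bcl3* and *Nfil3*, which fell by 0.98 and 0.97 (adjusted p = 0.0353 and 0.0261), 1 was higher, *Il4ra*, and 9 did not pass (median −0.31). *Il1rn*, the gene of the IL-1 receptor antagonist, was higher with LPS+USP7i than in untreated cells by 2.44 (adjusted p = 0.0375) and *Pim1* by 2.27 (0.0253), among 7 such genes, while *Mcl1*, the 1 lower gene, fell by 1.07 (0.0136).

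Of 7 targets of STAT5, 5 were higher with LPS, 1 was lower, and 1 did not pass (median 1.18). *Ccnd2*, the cyclin D2 gene, read 8.53 and 8.49 without treatment, 13.40 and 13.21 after LPS, and 10.02 and 10.07 when the inhibitor was present. Its groups had the order of *Jak2* and *Stat5a*, with the inhibitor arrays between the others. LPS raised *Ccnd2* by 4.79 (adjusted p = 0.00184), and it fell by 3.26 with the inhibitor (adjusted p = 0.00987). *Socs2* was the other STAT5 target called lower with the inhibitor, so 2 of the 7 were lower, 0 were higher, and 5 did not pass (median −0.67). *Bcl6*, a repressor gene, fell by 0.80 with LPS (adjusted p = 0.00726). Against untreated cells, 4 of the 7 were higher with LPS+USP7i and 1 was lower, with *Osm* higher by 1.60 (adjusted p = 0.0263), besides *Cish* and *Pim1* as given above, and *Bcl6* lower by a log2 difference of −0.97 (0.00806).

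Of 8 targets of STAT6, 3 were higher with LPS, 0 were lower, and 5 did not pass (median 0.48). The 3 are chemokine genes: *Ccl17* was at least 57.5-fold higher (adjusted p = 0.00872), *Ccl22* at least 6.65-fold higher (0.00377), and *Ccl24* rose by 2.92 (0.0280). The same 3 were lower with the inhibitor than with LPS, where 0 of the 8 were higher and 5 did not pass (median −0.76). *Ccl17* fell by 4.24 (adjusted p = 0.0362), *Ccl22* was at least 5.15-fold lower (0.0110), and *Ccl24* fell by 2.83 (0.0497). *Retnla*, a gene that IL-4 induces in macrophages, was not well above background in any group. Against untreated cells, 0 of the 8 passed in limma in either direction. Of the 8, 2 had an unadjusted p under 0.05, as did 10003 of all 34789 gene names.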

How the data were processed

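The 9 genes and all lists were chosen with earlier results of these data known. RNA (200 ng) was labeled with Cy3. Per the file headers, Agilent Feature Extraction 10.7.3.1 made the deposited intensity values from the scans, by background subtraction and detrending. Each array had 59305 non-control spots, of which 0 were saturated. The authors deposited a log2 table, which correlated at 0.99997 with median signal treated by normexp and quantile normalization. Here log2 processed signal was quantile-normalized, outlier spots (119 to 172 per array) were set missing, and spots of a probe were averaged. Each gene was read from its probe of greatest average signal. Of 55681 probes, 26762 were named by accession, 3819 by symbol, 637 by synonym, and 24463 by the name in the file, giving 34789 gene names, 22221 of them RefSeq.

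Tests were run in R 4.3.3 with limma 3.58.1 (lmFit and eBayes, all 3 groups in 1 fit, residual df 3, prior df 1.05), with Benjamini-Hochberg adjustment over 55680 probes and a threshold of 0.05. "At least" folds set the undetected group at the lowest signal well above background on its arrays. In each list and comparison the 3 largest increases and 3 largest decreases past the threshold were named if well above background on both arrays of a group and free of overlap. *Socs1*, *Socs3*, *Cish*, *Irf9*, *Il10*, *Ifnb1*, *Ifnar1*, *Ifnar2*, *Il6st*, *Il10ra*, *Csf2rb*, *Il2rg*, *Ptpn2*, and *Ptpn6* were always named. Alternatives were 75th percentile scaling, normexp, the deposited table, dim probes left out, outlier spots kept, trended variance, 2 groups per fit, replicate block, the median of a gene's probes, and each array left out. Promoters came from RefSeq (GRCm38.p6), and the exon or UTR of a probe is not given in the sources used here. Of the genes first listed, 1 is not reported here.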

Additional observations from a re-analysis of the deposited data

How the results depend on the processing

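Scaling to the 75th percentile moved the median of all genes by 0.40 for LPS minus untreated and by 0.44 for LPS+USP7i minus untreated, so 12151 genes were then called higher and 4048 lower in the first, and 12183 and 3354 in the second. Under it 3 of the 9 genes were higher with LPS+USP7i than in untreated cells. Normexp called 1 gene lower with LPS (5318 array-wide), 8 lower with LPS+USP7i than LPS, and 3 higher with LPS+USP7i than untreated (2743 array-wide). Array-wide it called 2880 higher and 2373 lower between LPS+USP7i and LPS. The deposited table called 1 of the 9 lower with LPS+USP7i than untreated, without *Tyk2* (3976 genes called array-wide in either direction). Without dim probes, 7 were lower with LPS+USP7i than LPS (2360 array-wide) and 2 higher than untreated (6731 array-wide in either direction). Trended variance called 1 lower with LPS (7152 array-wide in either direction).

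With 2 groups per fit, 1 gene was lower with LPS, 0 were lower with LPS+USP7i than LPS, and against untreated cells 0 were higher and 1 was lower. Array-wide this fit called 0 genes in either direction between LPS+USP7i and LPS (8004 at an unadjusted p under 0.05), and 1347 higher and 1955 lower between LPS+USP7i and untreated. Between LPS and untreated it called 6607 in either direction.

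Deviations of arrays with the same replicate number correlated at 0.47, 0.40, and 0.42 over 20705 probes. The labels share these numbers but do not say that they mark an experiment. With a replicate block in the fit, 6 genes were higher and 0 lower with LPS, 0 higher and 3 lower with LPS+USP7i than LPS, and 0 higher and 1 lower with LPS+USP7i than untreated. Array-wide this fit called 7638, 2549, and 5488 genes in either direction in the same order. Under it *Jak2* was not called between LPS+USP7i and LPS (adjusted p = 0.0522), nor were *Jak2* (0.0545) and *Tyk2* (0.0547) between LPS+USP7i and untreated, *Stat4* was called higher with LPS (0.0152), and no other call of the 9 genes changed.

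With each array left out in turn, the counts ranged from 2 to 4 higher and 0 to 1 lower with LPS, 0 to 0 higher and 0 to 3 lower with LPS+USP7i than LPS, and 0 to 2 higher and 0 to 2 lower against untreated cells. Array-wide, genes higher with LPS numbered 1378 and 1138 without untreated replicate 1 and 2, and genes lower with LPS 2013 and 1644. Without LPS replicate 1 and 2, genes lower with LPS numbered 2071 and 2583. Between LPS+USP7i and LPS, 0 genes passed without either untreated array (8003 and 8004 at an unadjusted p under 0.05), 525 and 540 were higher and 791 and 701 lower without LPS replicate 1 and 2, and 1162 were higher and 588 lower without LPS+USP7i replicate 1. Between LPS+USP7i and untreated, the higher counts were 626 and 474 without untreated replicate 1 and 2, and 1347 and 1346 without LPS replicate 1 and 2, and the lower counts were 898, 563, 1955, and 1955, then 1863 and 1812 without LPS+USP7i replicate 1 and 2.

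The sign reversed in 3 cases, none of them called. *Stat3* differed between LPS+USP7i and untreated by −0.041 without untreated replicate 2 and by 0.27 without replicate 1, *Jak3* between LPS and untreated by −0.0095 without LPS replicate 1 and by 0.51 without replicate 2, and *Jak1* between LPS+USP7i and untreated by −0.037 without LPS+USP7i replicate 2 and by 0.14 without replicate 1. In all 15 settings the 9 genes had negative differences between LPS+USP7i and LPS.

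With 2 arrays per group, all calls of LPS+USP7i against LPS depend on the variance shared with untreated cells. The sign of the 9 genes in that comparison did not depend on the setting, while the number that passed did. *Jak2* and *Stat5a* were called higher with LPS under every setting, and no other gene of the 9 was. RNA alone was measured, at 1 time after LPS and with 1 dose of the inhibitor, and USP7 activity was not measured. The order of slide position matches the groups. Quantile normalization holds the distribution of signal equal on all arrays, so a change of total RNA per cell would not be seen.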
